A study of Mus musculus with 8 samples.

Results

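The genes of the translation initiation factors (eIF) and elongation factors (eEF) were followed through the differentiation of mouse primary oligodendrocyte precursor cells (OPCs) into oligodendrocytes (OLs). They were taken as every gene whose symbol starts with *Eif1* to *Eif6* or with *Eef1* or *Eef2*, without the eIF2 kinases (*Eif2ak*), the *Eif2s3* genes and pseudogenes, which gave 61 of the 23427 genes in the table. Of these, 60 had an FPKM (the number of fragments divided by transcript length and by the library's mapped fragments) that reached 1 in 2 or more libraries and were tested, and *Eif4e1b*, an eIF4E form known from oocytes, was at 0 in all 8 libraries. The symbols *Eif2c1* to *Eif2c4* met the rule but are older names of the Argonaute genes *Ago1* to *Ago4*, whose proteins carry small RNAs and are not translation factors, so these 4 genes are described apart. All cells were wild type (WT) C57BL/6J, purified by immunopanning on an antibody against PDGFRα from cortices pooled from 3 pups at postnatal day 7. Day 0 cells were OPCs before induction, and Day 1, Day 2 and Day 3 cells had been cultured for that number of days without PDGF-AA and with the thyroid hormone T3 (40 ng/mL). The sample labels and the methods name different culture media and RNA kits. Each day had 2 libraries, numbered replicate 1 and replicate 2.

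Translation of most mRNAs starts when eIF4E binds the cap, eIF4G bridges it to eIF3 on the small ribosomal subunit, and the helicase eIF4A opens the leader while eIF2 brings the initiator tRNA. 4E-binding proteins (4E-BPs) occupy eIF4E when mTORC1 is inactive and so set how much of it is free. During elongation eEF1A delivers aminoacyl-tRNAs, the eEF1B complex reloads eEF1A with GTP, eIF5A relieves stalled ribosomes, and eEF2 moves the ribosome by a codon at a time until its kinase eEF2K stops it. OLs are known for making large amounts of myelin lipid and protein, with mTORC1 active during their maturation.

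The depth, read from the steps between low FPKM values, was 960000 to 1530000 fragments per library, so that 1 FPKM of a 1-kb transcript rests on 0.96 to 1.53 fragments. Of the 4 OPC markers, *Pdgfra* went from 490 and 396 FPKM on Day 0 (replicate 1 and replicate 2) to 29.2 and 6.53 on Day 3 and *Cspg4* ended at 1.02 and 0.778, whereas *Sox10*, which OLs express too, was at 380 and 375 and then 505 and 367. The 6 OL markers summed to 1074 and 787 FPKM and then to 18963 and 26846. All 4 OPC markers were at 51.3 FPKM or more on Day 0. The 7 astrocyte markers summed to 120 to 167 FPKM in the replicate 1 libraries and to 354, 522, 641 and 952 from Day 0 to Day 3 in the replicate 2 libraries, and none was at 0 in every library. The 6 neuron markers summed to 51.1 to 242 FPKM. Of these *Tubb3* went from 60.2 and 20.8 FPKM on Day 0 to 231 and 113 on Day 3, while *Syn1* went from 17.6 and 19.7 to 9.53 and 15.1 and the other 4 stayed at or under 8.46, and the microglial, endothelial and mural lists stayed between 0 and 2.51 FPKM, with 6 of 7, 2 of 4 and 1 of 4 markers at 0 throughout. In a bulk sample, fewer cells of a type and less mRNA per cell cannot be told apart, and the part of the other cell types in the results was not tested.

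The promoters of 4 genes are shown as examples. They are those of *Eif5a* and its paralogue *Eif5a2*, which moved in opposite directions. The others are those of the cap-binding gene *Eif4e*, called lower already on Day 1, and of *Eef2*, the elongation factor gene of the second highest level. Each runs from 250 bases before to 50 bases after a start annotated by RefSeq (build GRCm38.p6), 5′ to 3′ on the strand of the gene. They lie at chr3:28781027-28781326 (*Eif5a2*, plus strand), chr11:69921337-69921636 (*Eif5a*, minus strand), chr3:138527018-138527317 (*Eif4e*, plus strand) and chr10:81176381-81176680 (*Eef2*, plus strand), and for *Eif5a* and *Eif4e* they are 1 of several annotated starts. Capitals mark the motifs searched: the E-box CACGTG, the letters bound by Myc and related factors, the ETS core CCGGAAG, the cAMP response element TGACGTCA and the TATA box TATAAA.
Eif5a2: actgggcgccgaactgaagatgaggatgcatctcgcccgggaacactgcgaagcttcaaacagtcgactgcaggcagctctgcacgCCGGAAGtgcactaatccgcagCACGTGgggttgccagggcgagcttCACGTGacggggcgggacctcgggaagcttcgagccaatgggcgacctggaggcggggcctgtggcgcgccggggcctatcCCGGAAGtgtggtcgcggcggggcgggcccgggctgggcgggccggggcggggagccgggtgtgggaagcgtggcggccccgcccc
Eif5a: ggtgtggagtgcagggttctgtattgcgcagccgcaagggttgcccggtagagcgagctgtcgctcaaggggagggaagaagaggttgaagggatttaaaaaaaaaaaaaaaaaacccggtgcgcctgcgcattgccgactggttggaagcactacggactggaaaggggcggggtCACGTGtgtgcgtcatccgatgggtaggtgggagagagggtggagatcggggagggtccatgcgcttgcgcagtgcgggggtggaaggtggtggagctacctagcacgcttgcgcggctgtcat
Eif4e: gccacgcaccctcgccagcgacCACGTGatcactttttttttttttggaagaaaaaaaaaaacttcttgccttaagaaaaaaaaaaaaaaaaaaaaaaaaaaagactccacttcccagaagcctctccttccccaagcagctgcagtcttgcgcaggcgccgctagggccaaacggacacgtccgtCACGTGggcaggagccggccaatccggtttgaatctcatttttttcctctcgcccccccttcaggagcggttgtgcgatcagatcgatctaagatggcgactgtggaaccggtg
Eef2: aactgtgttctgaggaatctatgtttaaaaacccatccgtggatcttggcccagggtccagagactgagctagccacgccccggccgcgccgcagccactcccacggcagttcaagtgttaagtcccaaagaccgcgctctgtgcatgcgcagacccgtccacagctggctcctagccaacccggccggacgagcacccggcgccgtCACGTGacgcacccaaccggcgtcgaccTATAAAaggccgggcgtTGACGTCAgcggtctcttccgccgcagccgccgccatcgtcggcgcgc
The *Eif5a2* window held the E-box at -142 and -117 and the ETS core at -164 and -36, counted from the annotated start to the leftmost base of the motif. The *Eif5a* window held an E-box at -74, and the *Eif4e* window at -228 and -64. In *Eef2* the E-box (-43), the TATA box (-15) and the cAMP response element (2) lay close together around the start.

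Promoters of 46 of the 61 genes were in the RefSeq table, some with several starts, and a gene was counted when any of its windows held a motif on either strand. The E-box was found in 12 of them (26.1%), against 8.09% of all 27025 genes with a promoter and 12.03% of the 8963 such genes that were tested here. All of the promoters printed above held it, so they do not stand for the group. The promoter of *Eef1a1* held none of the motifs searched, and that of *Eif4ebp2* held the ETS core alone. The ETS core was found in 17 (37.0%), against 9.93% of all genes and 20.4% of the tested genes. The TATA box was found in 4 (8.70%, against 15.7% and 8.06%) and the cAMP response element in *Eef2* alone (2.17%, against 2.03% and 3.89%). From Day 0 to Day 3, the median log2 fold change was -0.63 over the 12 genes with the E-box, 8 of them called lower. It was -0.56 over the 34 without the E-box, 17 of them called lower. Of the 17 genes with the ETS core, 10 were called lower and 2 higher, with a median of -0.60. Of the 29 without the ETS core, 15 were called lower and 0 higher, with a median of -0.56. Among all genes tested, 26.3% were called lower and 11.96% higher. A match to these letters is a description of the sequence and not a binding site.

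As a group, the translation factor mRNAs lost share of the transcriptome over the 3 days. Their summed FPKM made up 2.80% and 3.01% of the total on Day 0 (replicate 1 and replicate 2), 2.68% and 2.28% a day later, 2.01% and 1.85% by Day 2, and 1.60% and 1.51% by Day 3, with no overlap between any of the days. *Eef1a1*, which encodes the main form of eEF1A, accounted for much of this. It alone made up 1.33% and 1.46% on Day 0 and 0.518% and 0.443% on Day 3, while the other genes together went from 1.48% and 1.55% to 1.08% and 1.07%. *Eef1a1* had the highest FPKM of all genes in both Day 0 libraries, and ranked 8 and 10 in the Day 3 libraries, where *Mbp* was the highest.

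**Figure D1:**
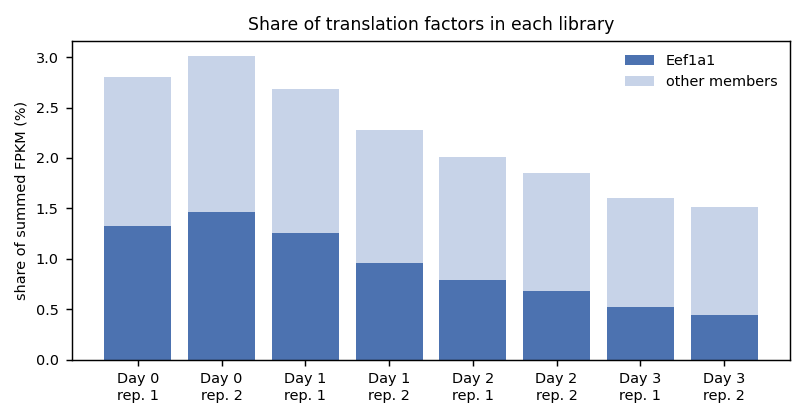
Share of the summed FPKM of each library (y axis, %) taken by *Eef1a1* (dark) and by the other translation factor genes (light), for the 2 libraries of each day (x axis). The stacked bars fall from 2.80% and 3.01% on Day 0 to 1.60% and 1.51% on Day 3.

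Next, the days were compared gene by gene with limma on log2(FPKM + 1), adjusted by the Benjamini-Hochberg method over all 12208 genes tested. On this scale the change of genes at low FPKM is understated. From Day 0 to Day 3, 33 of the 60 genes were called lower (55%) at an adjusted p under 0.05, against 26.3% of all genes, and 2 were called higher, against 11.96% of all genes. The 2 were *Eif5a2* and the Argonaute gene *Eif2c3*. The median log2 fold change of the 60 genes was -0.61 and that of all genes was -0.31, a difference of -0.30, and 45 of the 60 lay below the median of all genes. Both Day 3 libraries were below both Day 0 libraries for 48 of the 60 genes, against 48.6% of all genes, and above them for 6, against 22.8%. Without the 4 Argonaute genes, 30 of 56 were called lower and 1 higher. When the libraries were scaled by the median ratio, which brings the median of all genes to -0.04, 17 genes were called lower (28.3%, against 16.8% of all genes) and 4 higher, and without Day 0 replicate 2, 20 were called lower (33.3%, against 14.5%). Of the 33 genes called lower, 15 kept the call in every other setting in which they were tested, namely *Eef1a1*, *Eef1b2*, *Eef1g*, *Eif5a*, *Eif4e*, *Eif4b*, *Eif4a3*, *Eif4ebp1*, *Eif4ebp2*, *Eif3d*, *Eif3e*, *Eif3f*, *Eif3h*, *Eif3i* and *Eif2c4*, and both genes called higher did so.

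**Figure D2:**
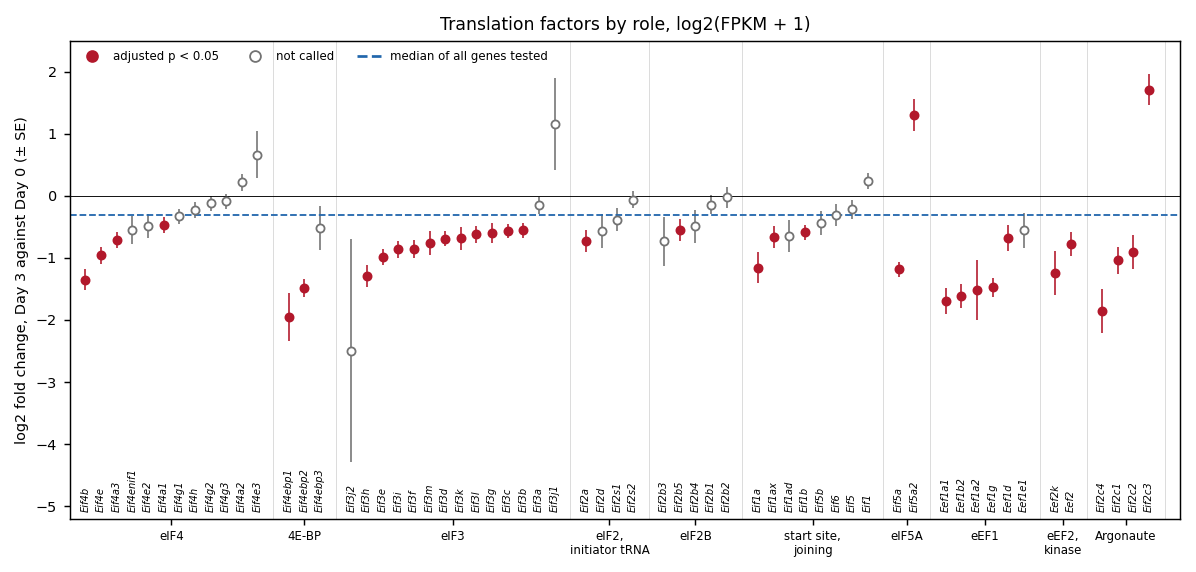
Change between Day 0 and Day 3 as log2 fold change (y axis, limma estimate ± SE, 2 libraries per day) of the 60 tested genes, grouped by role (x axis), with filled points for genes called at an adjusted p under 0.05 and a dashed line at the median of all genes tested (-0.31). Of the eEF1 genes 5 of 6 and of the eIF3 genes 11 of 14 are called lower, whereas in the eIF4 group 4 of 12 are. Among all genes tested, 26.3% are called lower.

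Most of the difference had been reached by Day 2. Over the 33 genes called lower, the median difference from Day 0 within the same replicate number was -0.20 and -0.53 for Day 1, -0.71 and -0.84 for Day 2, and -0.84 and -0.92 for Day 3 (log2, replicate 1 and replicate 2). These genes were chosen for their difference between Day 3 and Day 0, and Day 0 is the baseline of every pair. All of these medians, and the share reached by Day 2, are therefore descriptions only. For all 60 translation factor genes tested, the same medians were -0.20 and -0.36, then -0.46 and -0.59, and then -0.57 and -0.63. For all genes tested the same medians were -0.04 and -0.10, then -0.23 and -0.31, and then -0.27 and -0.33. By Day 2 the 33 genes had covered a median of 82.8% of their Day 3 change, from 24.5% for *Eif4a1* to 123% for *Eef1a2*.

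Single steps between days gave few calls. From Day 0 to Day 1, 4 genes were called lower (6.67%, against 7.56% of all genes), namely *Eif1a*, *Eif4e*, *Eif5a* and *Eif4ebp2*, and *Eif2c3* was called higher (1.67%, against 5.04%). None of the 4 calls lower was kept in every other setting. Leaving out Day 0 replicate 1, Day 0 replicate 2 or Day 1 replicate 2 left 0 genes called lower. From Day 1 to Day 2, *Eif3e* and *Eif4ebp2* were called lower (3.33%, against 1.73%) and none higher, against 2.16%. These calls were lost in 7 and 12 of the 17 other settings, and 0 genes were called lower without Day 1 replicate 1 or without either Day 2 library. A block for the replicate number gave 4 genes lower in that step (*Eif4b* and *Eif2c1* in addition) and *Eif2b2* higher. From Day 2 to Day 3 limma called 0 genes lower (0.0491% of all genes) and 0 higher (0.246%), while 7 of the 60 had an unadjusted p under 0.05, and every other setting also called 0.

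Of the 8 elongation factor genes and partners, 7 were called lower, against 26.3% of all genes. *Eef1a1* (chr9:78478449-78489151, minus strand) was at 5346 and 5942 FPKM on Day 0, at 4801 and 3623 a day later, at 2889 and 2548 on Day 2 and at 1901 and 1591 on Day 3. Each day lay below the day before it in both libraries. The means of 5644 ± 421 on Day 0 and 1746 ± 219 on Day 3 (SD, n = 2) differed by a log2 fold change of -1.70 ± 0.21 (SE), or -1.38 relative to all genes (limma, adjusted p = 5.22e-04). The 3 subunits of the exchange factor eEF1B followed. *Eef1b2*, the alpha subunit and an exchange enzyme, fell from 162 and 218 FPKM on Day 0 to 134 and 105, 93.0 and 78.5, and 64.97 and 56.2 on Days 1, 2 and 3 (log2 fold change -1.62 ± 0.19, adjusted p = 4.73e-04). *Eef1g*, the gamma subunit that anchors the complex, fell from 324 and 391 to 141 and 115 FPKM (-1.47 ± 0.15, adjusted p = 2.49e-04), and *Eef1d*, the delta subunit, from 63.4 and 61.1 to 45.4 and 32.6 (-0.68 ± 0.20, adjusted p = 0.0304), a call lost in 6 of the 17 other settings (adjusted p up to 0.190). *Eef1e1*, a scaffold protein of the tRNA synthetase complex, was at 32.0 and 41.6 FPKM on Day 0 and 23.8 and 25.1 on Day 3 and was not called (-0.56 ± 0.28, adjusted p = 0.149).

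*Eef1a2*, the eEF1A form known from neurons and muscle, was near the limit of detection beside *Eef1a1*. Its 2.87 and 9.16 FPKM on Day 0 were about 9.2 and 23.4 fragments, and its 0.896 and 1.53 FPKM on Day 3 about 2.0 and 3.1 fragments. The days did not overlap, but the call (log2 fold change -1.52 ± 0.48, adjusted p = 0.0370) was lost without Day 0 replicate 2 (-0.82, adjusted p = 0.249) and with 9 of the other 15 settings.

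The translocase gene *Eef2* (chr10:81176631-81182498, plus strand) was at 1064 and 1133 FPKM on Day 0, at 1172 and 780 a day later, at 768 and 727 on Day 2 and at 684 and 602 on Day 3. The 2 libraries of Day 1 spanned the values of Day 0, and both Day 2 libraries lay below both of Day 1. Day 3 lay below all earlier days (log2 fold change from Day 0 -0.77 ± 0.20, or -0.46 relative to all genes, adjusted p = 0.0164). *Eef2k*, the kinase that inactivates eEF2, was at 5.85 and 7.96 FPKM on Day 0 and 2.64 and 2.00 on Day 3 (-1.25 ± 0.35, adjusted p = 0.0238). Both calls were lost in 5 other settings, namely median ratio scaling (log2 fold change -0.46, adjusted p = 0.0944 for *Eef2*, and -0.99, adjusted p = 0.0526 for *Eef2k*), quantile normalization (adjusted p = 0.0815 and 0.0951) and without Day 0 replicate 1, Day 0 replicate 2 or Day 3 replicate 2 (adjusted p from 0.0654 to 0.0907 and from 0.05996 to 0.141).

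**Figure D3:**
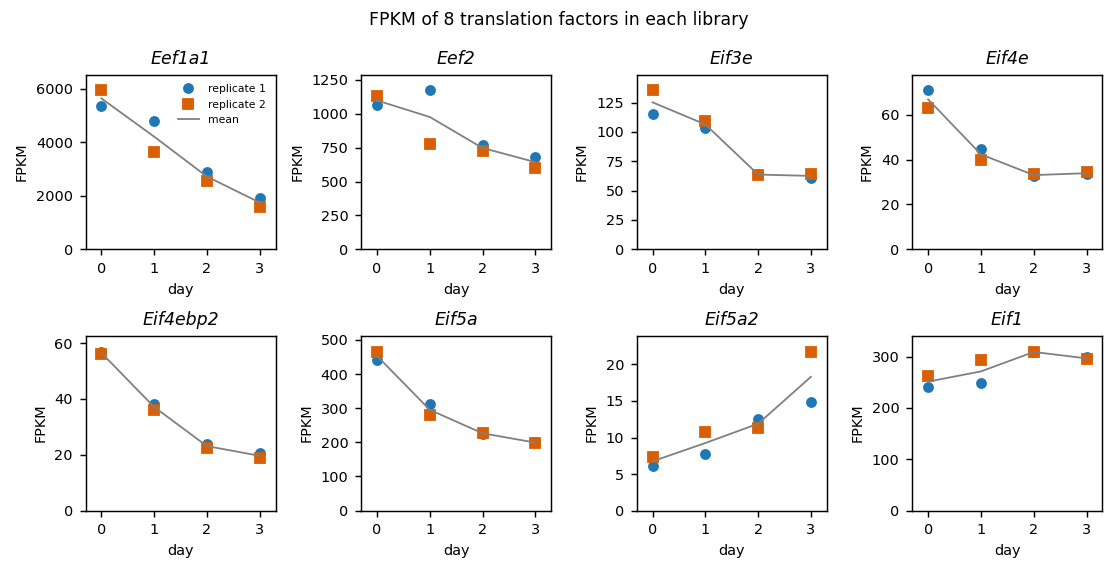
FPKM (y axis, linear from 0) of 8 translation factor genes on Day 0 to Day 3 (x axis), with a point for each library of replicate 1 and replicate 2 and a line through the means. *Eef1a1* falls from 5346 and 5942 to 1901 and 1591, *Eif5a2* rises from 6.14 and 7.35 to 14.9 and 21.7, and *Eif1* stays between 241 and 309.

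The eIF5A pair moved apart. Both encode eIF5A, which carries the amino acid hypusine and helps ribosomes through stretches that stall. *Eif5a* (chr11:69916714-69921958, minus strand) was at 441 and 465 FPKM on Day 0, at 312 and 279 a day later, at 226 and 227 on Day 2 and at 201 and 197 on Day 3, and every day lay below the day before it. It differed by -0.62 ± 0.12 (log2) between Day 0 and Day 1 (adjusted p = 0.0124) and by -1.18 ± 0.12 between Day 0 and Day 3 (adjusted p = 2.42e-04). The call to Day 1 was lost in some other settings, among them quantile normalization (-0.35, adjusted p = 0.105). *Eif5a2* (chr3:28781276-28798846, plus strand) was at 6.14 and 7.35 FPKM on Day 0, at 7.68 and 10.8 a day later, at 12.5 and 11.3 on Day 2 and at 14.9 and 21.7 on Day 3. Its libraries did not overlap between days, and the rise to Day 3 (1.30 ± 0.26, or 1.61 relative to all genes, adjusted p = 0.00543) stayed called in all 17 other settings, from 1.04 to 1.68. About 45.3 to 105 fragments stood behind each value. *Eif5a* was still the more abundant on Day 3: the mean ratio of *Eif5a2* to *Eif5a* FPKM was 0.0148 on Day 0 and 0.0921 on Day 3.

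Among paralogues, the log2 ratio within a library does not depend on how that library is scaled, apart from the pseudocount, so the ratio was tested for a slope on day in 9 pairs by a two-sided exact permutation test over 2520 arrangements of the 8 libraries, with p-values adjusted over the pairs. The smallest p the arrangements can give is 7.94e-04. *Eif5a2*/*Eif5a* rose by 0.82 per day (exact permutation p = 7.94e-04, adjusted p = 0.00357), from ratios of 0.0139 and 0.0158 on Day 0 to 0.0741 and 0.110 on Day 3. *Eif1b*/*Eif1* fell by 0.29 per day with the same p-values, from 0.470 and 0.438 on Day 0 to 0.421 and 0.410, 0.305 and 0.302, and 0.255 and 0.255. With libraries permuted within replicate numbers, both of these pairs had an exact permutation p of 0.00347 (adjusted p = 0.0156), the smallest p possible there. *Eif4a2*/*Eif4a1* rose by 0.20 per day (exact permutation p = 0.0143, adjusted p = 0.0429), from 0.173 and 0.178 on Day 0 to 0.311 and 0.259 on Day 3, but its adjusted p was 0.0833 when libraries were permuted within replicate numbers (576 arrangements) and 0.0524 to 0.133 without 1 of 7 of the libraries. The other 6 pairs did not pass. *Eif4e3*/*Eif4e* had a slope of 0.59 per day (adjusted p = 0.0857), with ratios that went from 0.0220 and 0.0310 on Day 0 to 0.151 and 0.169 by Day 2 and were 0.131 and 0.0727 on Day 3. The slopes of *Eif4e2*/*Eif4e*, *Eif4g2*/*Eif4g1*, *Eif4g3*/*Eif4g1* and *Eif4ebp2*/*Eif4ebp1* were 0.16, 0.10, 0.10 and 0.16 per day (adjusted p from 0.127 to 0.288), and that of *Eef1a2*/*Eef1a1* was -0.03 (adjusted p = 0.886).

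**Figure D4:**
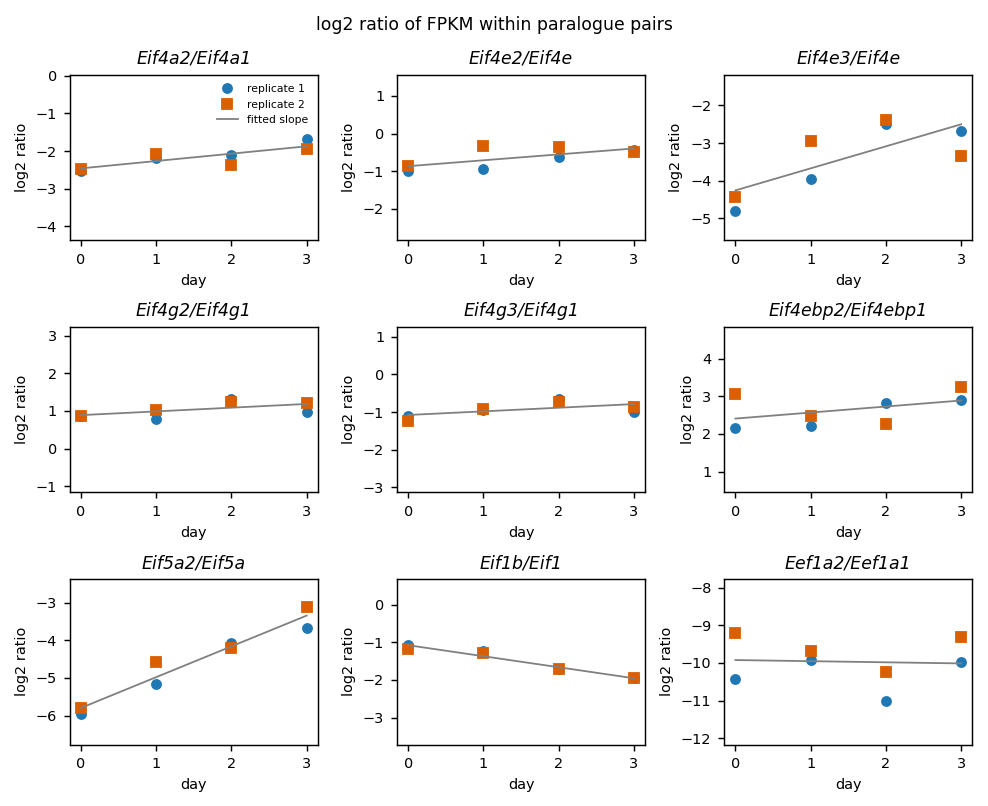
The log2 ratio of (FPKM + 1) within 9 paralogue pairs (y axis, panels of equal span) on Day 0 to Day 3 (x axis), with a point per library and the fitted slope as a line. *Eif5a2*/*Eif5a* climbs by 0.82 per day, *Eif1b*/*Eif1* falls by 0.29 per day, and both replicates lie close to the line in these pairs.

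The group at the cap was divided. *Eif4e* (chr3:138526179-138559696, plus strand), the cap-binding protein gene, was at 70.8 and 62.8 FPKM on Day 0, at 44.7 and 39.9 a day later, at 32.5 and 33.6 on Day 2 and at 33.4 and 34.4 on Day 3. It had reached its lowest level by Day 2, and most of its change came in the step to Day 1 (log2 fold change -0.65 ± 0.14, adjusted p = 0.0185). The call to Day 1 was lost in some other settings, among them eBayes without a trend (adjusted p = 0.0615). To Day 3 the log2 fold change of *Eif4e* was -0.96 ± 0.14 (adjusted p = 0.00117). *Eif4e2* (4EHP), which binds caps without recruiting eIF4G, was at 34.8 and 34.1 FPKM on Day 0 and 24.6 and 24.0 on Day 3 and was not called (-0.49 ± 0.19, adjusted p = 0.0777). *Eif4e3*, an atypical cap-binding form, reached 5.68 FPKM at most (about 6.0 to 19.0 fragments per library) and was not called (0.66 ± 0.38, adjusted p = 0.201).

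None of the 3 eIF4G scaffold genes was called. *Eif4g1* was at 115 and 120 FPKM on Day 0 and 97.7 and 89.4 on Day 3 (log2 fold change -0.33 ± 0.12, adjusted p = 0.0566). *Eif4g2*, which lacks the eIF4E site and serves cap-independent starts, was at 212 and 221 FPKM on Day 0 and 192 and 206 on Day 3 (-0.12 ± 0.12, adjusted p = 0.469). *Eif4g3* was at 52.7 and 50.6 and then 48.0 and 49.1 FPKM (-0.09 ± 0.12, adjusted p = 0.6004). The estimates for *Eif4g2* and *Eif4g3* lay above the median of all genes (0.19 and 0.23 relative to it) and turned positive under rescaling to the same sum and under median ratio scaling.

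Of the helicases, *Eif4a1* was at 453 and 481 FPKM on Day 0, at 474 and 503 a day later, at 431 and 431 on Day 2 and at 318 and 356 on Day 3. It was called lower (log2 fold change -0.47 ± 0.13, adjusted p = 0.0192), but its change relative to all genes was -0.16, the call was lost in 7 of the 17 other settings, and its direction turned in one of them, quantile normalization (0.18, adjusted p = 0.361). The others were rescaling to the same sum, median ratio scaling, eBayes without a trend, and the fits without Day 0 replicate 1, Day 0 replicate 2 or Day 3 replicate 1 (adjusted p from 0.0659 to 0.428). *Eif4a2* was at 78.3 and 85.9 FPKM on Day 0 and 98.9 and 92.2 on Day 3, with both Day 3 libraries above both Day 0 libraries, and was not called (0.22 ± 0.14, adjusted p = 0.258), though it was called higher under median ratio scaling (0.53, adjusted p = 0.0187). *Eif4a3*, the helicase of the exon junction complex, fell from 98.0 and 90.2 to 61.4 and 53.5 FPKM (-0.70 ± 0.13, adjusted p = 0.00364). *Eif4b*, which stimulates eIF4A, fell from 116 and 127 FPKM on Day 0 to 102 and 75.7, 57.1 and 50.5, and 49.2 and 45.0 (-1.35 ± 0.17, adjusted p = 5.61e-04), the largest fall of the group, whereas *Eif4h*, its relative, was at 123 and 130 and then 110 and 107 FPKM (-0.22 ± 0.13, adjusted p = 0.205). In all, 4 of the 12 tested genes of the eIF4 group were called lower and 0 higher, with a median log2 fold change of -0.40, against 26.3% called lower and a median of -0.31 among all genes. *Eif4enif1*, the importer of eIF4E into the nucleus, was not called (-0.54 ± 0.23, adjusted p = 0.0920).

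Of the 3 inhibitors of eIF4E, 2 were called lower, against 26.3% of all genes. *Eif4ebp2*, the most abundant 4E-BP gene here and the main form of the brain, was at 56.9 and 56.1 FPKM on Day 0, at 38.3 and 35.9 a day later, at 23.9 and 22.3 on Day 2 and at 20.5 and 18.7 on Day 3. Every day lay below the day before it, and it was the gene called in both of the earlier steps (log2 fold change -0.59 ± 0.14, adjusted p = 0.0276, and -0.66 ± 0.14, adjusted p = 0.0423). Neither of these step calls of *Eif4ebp2* was kept in every other setting. To Day 3 its log2 fold change was -1.48 ± 0.14 (adjusted p = 1.84e-04), and the call was kept in all 17 other settings, from -1.17 to -1.55. *Eif4ebp1* had the lowest estimate of the translation factor genes called (-1.95 ± 0.39, adjusted p = 0.00532), from 11.96 and 5.82 FPKM on Day 0 to 1.87 and 1.06 on Day 3, but the last 2 values were about 4.1 and 2.0 fragments. *Eif4ebp3* was at 5.66 and 8.50 and then 3.19 and 6.35 FPKM, its days overlapped, and it was not called (-0.52 ± 0.35, adjusted p = 0.270). Its values rested on about 2.6 to 7.8 fragments per library.

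Most of the eIF3 complex fell. Of its 14 genes, 11 were called lower, against 26.3% of all genes. The log2 fold changes of those called lay between -0.56 (*Eif3b*) and -1.29 (*Eif3h*), and the median of the 14 genes was -0.69. *Eif3h*, the most abundant of them on Day 0, was at 198 and 215 FPKM on Day 0, at 188 and 152 a day later, at 121 and 102 on Day 2 and at 97.1 and 72.2 on Day 3 (-1.29 ± 0.18, adjusted p = 0.00105). *Eif3e* was at 115 and 135 on Day 0 and 104 and 109 on Day 1, and then dropped to 63.9 and 63.4 on Day 2 and 60.7 and 64.3 on Day 3. Its step from Day 1 to Day 2 was called (-0.73 ± 0.13, adjusted p = 0.0244, and up to 0.167 in the settings that lost it), and to Day 3 it was at -0.99 ± 0.13 (adjusted p = 7.38e-04). *Eif3a*, the largest subunit and a scaffold of the core, was an exception, with 85.4 and 79.2 FPKM on Day 0 and 68.2 and 80.1 on Day 3 (-0.15 ± 0.14, adjusted p = 0.404). *Eif3b*, *Eif3c* and *Eif3i*, which bind to it in the core, were called lower (-0.56, -0.57 and -0.86). *Eif3b* and *Eif3c* were not called under median ratio scaling (-0.24 and -0.26, adjusted p = 0.153 and 0.111), nor *Eif3b* without Day 0 replicate 2, and the calls of *Eif3g*, *Eif3k*, *Eif3l* and *Eif3m* were lost in 5, 6, 3 and 3 settings.

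The last subunit, eIF3j, could not be read from its 2 genes separately. *Eif3j1* was at 10.6, 35.5, 43.1, 7.34, 11.97, 15.97, 48.8 and 41.5 FPKM from Day 0 replicate 1 to Day 3 replicate 2, and *Eif3j2* was at 30.95, 36.9, 39.0 and 35.7 FPKM in Day 0 replicate 1, Day 1 replicate 2 and both Day 2 libraries and at or under 1.93e-06 in the other 4. Wherever *Eif3j2* was high, *Eif3j1* was low, in libraries of the same day as well. The table lists both on chromosome 2, where GENCODE M21 has *Eif3j1* alone. GENCODE M21 does hold a gene named *Eif3j2*, but not on that chromosome. Of the 31-base stretches of *Eif3j1*, 57.7% occurred in another gene, with 41.0% in *Eif3j2* and 17.9% in *Spg11*, which overlaps *Eif3j1* on the opposite strand. The sum of the 2 genes was 35.5 to 51.7 FPKM, and tested as 1 gene, a choice made after the data were seen, it was not called (log2 fold change 0.22 ± 0.15, adjusted p = 0.261).

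**Figure D5:**
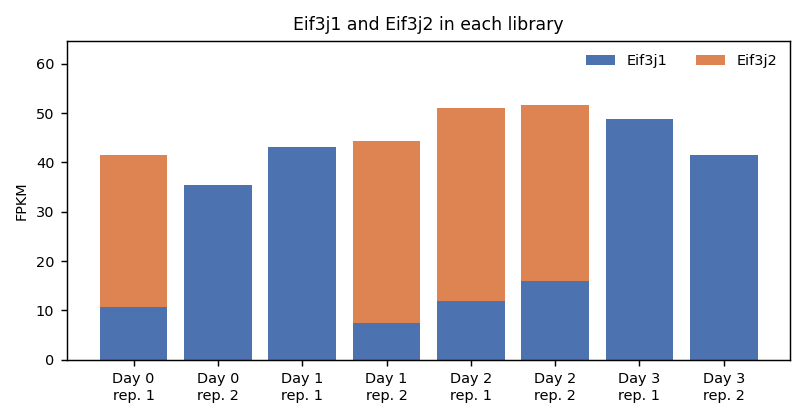
FPKM (y axis) of *Eif3j1* and *Eif3j2*, stacked, in the 2 libraries of each day (x axis). The split between the genes changes from library to library within Day 0 and Day 1, while the height of the stack stays between 35.5 and 51.7.

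Of the 4 genes for delivery of the initiator tRNA, 1 was called lower, against 26.3% of all genes. *Eif2s1* and *Eif2s2*, the alpha and beta subunits of eIF2, were not called. *Eif2s2* was at 62.8 and 54.2 FPKM on Day 0 and 59.5 and 52.3 on Day 3, its days overlapped, and its estimate (-0.06 ± 0.14, adjusted p = 0.744) changed sign under rescaling to the same sum and under median ratio scaling. *Eif2s1* was at 27.7 and 26.4 and then 19.2 and 21.9 FPKM (-0.38 ± 0.18, adjusted p = 0.131). Of the factors that act apart from eIF2, *Eif2a* fell from 31.8 and 41.5 to 21.1 and 21.8 FPKM (-0.73 ± 0.18, adjusted p = 0.0123, but 0.113 under median ratio scaling and 0.104 without Day 0 replicate 2), and *Eif2d* was at 12.9 and 16.9 and then 11.8 and 7.92 (-0.56 ± 0.27, adjusted p = 0.139).

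The 5 subunits of eIF2B reload eIF2 with GTP, and mutations in their genes are known to cause vanishing white matter disease. *Eif2b5*, the catalytic epsilon subunit, was the only one of the 5 called lower, against 26.3% of all genes. It went from 24.5 and 29.3 FPKM on Day 0 to 17.6 and 18.4 on Day 3 (-0.55 ± 0.17, or -0.24 relative to all genes, adjusted p = 0.0356). The call was lost in 9 of the 17 other settings, among them the 3 rescalings and the fits without any 1 of the Day 0 and Day 3 libraries (adjusted p up to 0.333). *Eif2b1* was at 29.9 and 32.0 and then 27.4 and 28.5 FPKM (-0.14 ± 0.15, adjusted p = 0.494), with a sign that turned under the 3 rescalings of the libraries. *Eif2b2* went from 19.2 and 18.9 on Day 1 to 29.2 and 35.8 on Day 2 and back to 25.1 and 25.2 on Day 3. *Eif2b3* was at 9.26 and 11.8 on Day 0 and at 3.55 and 9.47 on Day 3 (-0.73 ± 0.40, adjusted p = 0.180), and it was called lower without Day 3 replicate 2 (-1.33, adjusted p = 0.0258).

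Among the genes of start site selection and subunit joining, the 2 eIF1 genes diverged. *Eif1* (chr11:100319885-100322096, plus strand), which guards the choice of the start codon, was at 241 and 262 FPKM on Day 0, at 249 and 293 a day later, at 308 and 309 on Day 2 and at 298 and 295 on Day 3. Day 3 lay above Day 0 in both libraries, yet the gene was not called (log2 fold change 0.24 ± 0.13, or 0.55 relative to all genes, adjusted p = 0.177), and it was called higher under rescaling to the same sum (0.39, adjusted p = 0.0440), median ratio scaling (0.56, adjusted p = 0.0160) and quantile normalization (0.65, adjusted p = 0.00514). *Eif1b* (chr9:120492232-120495330, plus strand) fell from 113 and 115 FPKM on Day 0 to 94.0 and 93.4 by Day 2 and to 76.0 and 75.1 by Day 3 (-0.59 ± 0.12, adjusted p = 0.00651), and was not called under median ratio scaling (-0.27, adjusted p = 0.141).

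*Eif1a* and *Eif1ax* encode eIF1A, the partner of eIF1 in scanning, and both were called lower. *Eif1a* went from 23.3 and 28.6 FPKM on Day 0 to 12.2 and 13.9 on Day 1 (-0.94 ± 0.25, adjusted p = 0.0432). This call was lost with a pseudocount of 0.1, no filter, rescaling to the same sum, median ratio scaling and eBayes without a trend (adjusted p up to 0.0674). It was also lost without any 1 of the Day 0 and Day 1 libraries (-0.80 to -1.08). *Eif1a* was at 9.55 and 12.7 on Day 3 (-1.16 from Day 0, adjusted p = 0.00745), a call lost without Day 0 replicate 2 (-1.02). *Eif1ax* was at 107 and 74.8 on Day 0, at 80.7 and 77.9 on Day 2 and at 59.4 and 53.0 on Day 3 (-0.66 ± 0.18 from Day 0, adjusted p = 0.0185). None of its steps between successive days was called. Its call to Day 3 was lost in 6 settings, among them median ratio scaling and the fit without Day 0 replicate 1 (-0.41). *Eif5*, which triggers GTP hydrolysis on eIF2, *Eif5b*, which joins the subunits, and *Eif6*, which keeps them apart, were not called (-0.22 ± 0.15, -0.43 ± 0.19 and -0.31 ± 0.18, adjusted p = 0.288, 0.102 and 0.199), nor was *Eif1ad* (-0.64 ± 0.26, adjusted p = 0.0826).

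Of the 4 Argonaute genes that share the *Eif2c* symbol, 3 were called lower and 1 higher from Day 0 to Day 3. Among all genes, 26.3% were called lower and 11.96% higher. *Eif2c3* (*Ago3*) was at 3.76 and 3.95 FPKM on Day 0, at 13.5 and 19.0 a day later, at 20.1 and 17.7 on Day 2 and at 12.5 and 17.6 on Day 3. It rose within the first day (log2 fold change 1.81 ± 0.25, adjusted p = 0.00253) and remained called on Day 3 (1.71 ± 0.25, adjusted p = 0.00121). *Eif2c4* (*Ago4*) went from 3.60 and 5.00 to 0.281 and 0.640 FPKM (-1.86 ± 0.35, adjusted p = 0.00430), the latter about 2.0 and 4.0 fragments. *Eif2c1* and *Eif2c2* were called lower as well (-1.04 ± 0.22, adjusted p = 0.00700, and -0.91 ± 0.27, adjusted p = 0.0308), but the call of *Eif2c1* was lost without Day 0 replicate 1 (-0.96, adjusted p = 0.0527) and that of *Eif2c2* in 6 settings (adjusted p up to 0.147). *Eif2c1*, *Eif2c3* and *Eif2c4* lie side by side on the minus strand of chromosome 4.

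Other genes of translation were followed as fixed lists, of which 37 of 39 genes were in the table and tested. From Day 0 to Day 3, 9 were called lower (against 26.3% of all genes) and 1 higher, with a median log2 fold change of -0.38. The largest falls were those of the cytoplasmic poly(A)-binding proteins, which bind eIF4G and close the mRNA into a loop. *Pabpc4* was at 31.6 and 41.3 FPKM on Day 0 and 8.12 and 6.68 on Day 3 (-2.15 ± 0.22, adjusted p = 2.42e-04), and *Pabpc1* at 383 and 417 and then 125 and 129 (-1.65 ± 0.17, adjusted p = 2.74e-04). *Paip2b*, an inhibitor of poly(A)-binding protein, rose from 26.3 and 21.8 FPKM on Day 0 to 51.9 and 49.3 on Day 3 (1.05 ± 0.17, adjusted p = 0.00209). Of the 6 eIF2 kinases and phosphatase subunits, *Ppp1r15a* alone was called (-1.01 ± 0.22, adjusted p = 0.00854). None of the 7 enzymes that modify eIF5A or eEF2 was called by limma, and 2 of them (*Dph3* and *Dph5*) had an unadjusted p under 0.05. The termination factors *Gspt1* and *Gspt2* (-0.47 and -1.19) and the mitochondrial elongation factor *Tufm* (-0.62) were called lower. Of the 10 calls in these lists, those of *Pabpc1*, *Pabpc4* and *Paip2b* were kept in every other setting. A block for the replicate number added *Paip2* (0.51, adjusted p = 0.0338 in place of 0.106) as higher and *Mknk2* (-0.71, adjusted p = 0.0456 in place of 0.0993) as lower.

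Several of these genes have near copies elsewhere in the genome or share exons with an overlapping gene. The way reads in such stretches were assigned is not given in the sources used here. Of the 31-base stretches of the transcripts, 68.0% occurred in another gene for *Eef1g*, 67.5% for *Eif4a1*, 66.4% for *Eif4ebp3*, 66.2% for *Eef1a1*, 55.3% for *Eif3m*, 44.0% for *Eif4a3* and 42.0% for *Eif3e*, so the levels of these genes are uncertain. For *Eif4ebp3* the other gene is one that overlaps it on the same strand. Of the 28 genes with under 5% shared stretches, 14 were called lower and 2 higher, with a median log2 fold change of -0.56. Of the 8 genes with at least 40% shared, 6 were called lower and 0 higher, with a median of -0.73. Among all genes, 26.3% were called lower and 11.96% higher. *Eef1a2* and *Eif5a2* shared 0% and 0.14%. Exons of 14 of the genes overlap a gene on the opposite strand and those of 12 a gene on the same strand, among them *Eif1b*, *Eif2a* and *Eef1b2*, and whether fragments were counted by strand is not stated.

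The replicates moved together. Within each replicate number, 52 of the 60 genes were lower on Day 3 than on Day 0 in both, against 54.0% of all genes, 6 were higher in both and 2 differed in direction. The median log2 difference of the 60 genes was -0.57 in replicate 1 and -0.63 in replicate 2, against -0.27 and -0.33 for all genes. The astrocyte markers differed between the replicates, and their part in these values was not tested.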

How the data were processed

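Libraries of mRNA from 8 cultures on 4 days were made with a stranded kit and read as 75-nt paired ends. The authors used OmicSoft ArrayStudio for the reads and deposited 1 table of FPKM for 23427 genes, with a column per library and build mm10 per the labels. The aligner, the gene model and the use of strand are not given in the sources used here. FPKM are scaled to mapped fragments and gene length, so a large rise of a few genes can lower all others. The part of this in the results was not tested. Depth is not stated. It was derived from how far apart low FPKM values lie, with transcript lengths of GENCODE M21.

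Days and replicate numbers came from the labels. The 12208 genes that reached an FPKM of 1 in 2 or more libraries were tested on log2(FPKM + 1) with limma 3.58.1 in R 4.3.3 (lmFit and eBayes with a trend), with all 8 libraries, the day as a factor and Benjamini-Hochberg adjustment over all genes, and called at an adjusted p under 0.05. FPKM are not counts, so DESeq2, which the study's methods name, was not used. Ratios of paralogues were tested by exact permutation of the slope on day. The deviations of same-numbered libraries correlated in all 6 pairs of days, though weakly (r from 0.16 to 0.29 across genes). The main fit and the main permutation did not pair libraries by replicate number, and a block for that number was an alternative. That same-numbered libraries share a cell isolation is not stated, so p-values measure the spread between these libraries. Python 3.11.15, numpy 2.4.6, pandas 2.3.3 and matplotlib 3.10.9 were used for other steps.

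The genes, lists and tests were chosen with earlier results of these data known. Named were all paralogues, the 5 largest rises and falls among called genes whose libraries did not overlap, genes called in a single step, and the genes of highest and lowest level in each role. Others were added after their values were seen. The alternatives were a pseudocount of 0.1, no filter or one of 10 FPKM in 1 library, quantile normalization, median ratio scaling, rescaling to the same sum, eBayes without a trend, the replicate block, fits limited to the days compared, and leaving out each library in turn. A further pair, the sum of *Eif3j1* and *Eif3j2* and the count without the Argonaute genes, were chosen after seeing the data. Coordinates are from GENCODE M21 (GRCm38), which has 60 of the 61 genes on the chromosome given in the deposited data, and promoters from RefSeq (GRCm38.p6).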

Additional observations from a re-analysis of the deposited data

How the results depend on the processing

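The counts of genes called from Day 0 to Day 3 were within 1.5 times of those reported under all settings except that median ratio scaling gave 17 lower and 4 higher and that the count without the Argonaute genes had 1 higher; with each library left out in turn, 20 to 34 were lower and 2 higher each time. From Day 0 to Day 1 the number called lower was 8 with the filter of 10 FPKM, 2 with rescaling to the same sum and with a fit of only the days compared, 0 for eBayes without a trend, and 0 to 5 with a library left out, and median ratio scaling called 2 higher. From Day 1 to Day 2 the number called lower was 4 with the replicate block, 1 with no filter or rescaling to the same sum, 0 with median ratio scaling, a fit of only the days compared or no trend, and 0 to 2 with a library left out; 1 gene was called higher with the filter of 10 FPKM, quantile normalization, median ratio scaling, rescaling to the same sum or the block. Apart from the 4 genes the block added in single steps (*Eif2a* from Day 0 to Day 1, and *Eif2b2*, *Eif2c1* and *Eif4b* from Day 1 to Day 2) and *Eif4a2*/*Eif4a1*, whose adjusted p became 0.0833 at a slope of 0.20, and *Paip2* and *Mknk2*, which it added among the other translation genes from Day 0 to Day 3, it changed no other call. With a library left out, the slope of *Eif4a2*/*Eif4a1* was 0.15 to 0.21 and that of *Eef1a2*/*Eef1a1* -0.19 to 0.14, positive without Day 0 replicate 2 (0.14) or Day 2 replicate 1 (0.03). The signs of some uncalled genes turned under rescaling to the same sum and median ratio scaling: *Eif2b1* to 0.011 and 0.17, *Eif2s2* to 0.090 and 0.25, *Eif4g2* to 0.035 and 0.20, and *Eif4g3* to 0.066 and 0.22. *Eif2b1* also turned with quantile normalization (0.0020), as did *Eif4a1* (0.18). Also, the estimate of *Eif2s2*, which ran from -0.167 to 0.042 with a library left out, was positive without Day 0 replicate 1 or Day 3 replicate 2 (0.028). The cause of these changes was not tested. Genes under about 3 FPKM on Day 3 (*Eef1a2*, *Eif4ebp1*, *Eif2c4*, *Eef2k*) rest on few fragments, and their size of change is the least certain.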
